A study of Mus musculus with 25 samples.

Results

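The sciatic nerve of C3-PMP22 c-JunP0Cre mice, which carry a human PMP22 transgene and lack c-Jun in Schwann cells, was compared with the nerve of WT-C3 mice. The comparison used 10 of the 25 RNA sequencing libraries of the series, chosen by their genotype label, with 5 libraries per genotype and 1 library at each age of 3, 5, 7, 9 and 12 weeks. It asks which of the changes seen with the PMP22 transgene were still present when Schwann cells lacked c-Jun, so the 5 C3 libraries, in which c-Jun is intact, were set beside them. The C3 mice were labelled B6.Cg-Tg(PMP22)C3Fbas/J and the WT-C3 mice C57BL/6J, while the labels give no strain for the C3-PMP22 c-JunP0Cre mice. None of the groups was treated, and each library held the pooled nerves of animals of both sexes. The P0 promoter directs Cre to Schwann cells, and the labels do not say whether other cells of the nerve were reached. WT-C3 mice carry neither the transgene nor the Cre. The transgene, the loss of c-Jun, the Cre and the genetic background therefore cannot be told apart in the comparison with WT-C3. In the comparison with C3, the loss of c-Jun, the Cre and any difference in background cannot be told apart either. The words without c-Jun name the C3-PMP22 c-JunP0Cre genotype below and do not assign a difference to that loss. There was a single pool per genotype and age, so the 5 ages served as replicates (n = 5) and every standard deviation (SD) and standard error (SE) includes the change with age.

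PMP22 is a membrane protein of compact peripheral myelin, and an increased dose of its gene causes a demyelinating form of Charcot-Marie-Tooth disease. Schwann cells make the lipids of myelin themselves, above all cholesterol, galactolipids and sphingomyelin, and the enzymes of cholesterol synthesis are switched on together by SREBP2 when the sterol content of the endoplasmic reticulum is low. c-Jun, encoded by Jun, is a subunit of the transcription factor AP-1. It rises in Schwann cells of injured and diseased nerves, where it opposes the myelin genes and drives genes of the repair Schwann cell, among them Gfap, Ngfr and Shh.

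Between 9001002 and 16264172 fragments were counted on genes in the WT-C3 libraries, between 20619191 and 31717449 in the C3-PMP22 c-JunP0Cre libraries and between 2140142 and 49072746 in the C3 libraries. The lowest total belonged to the C3 library of 9 weeks, which limits the C3 values most. Levels are given as CPM, the counts of a gene relative to the size of its library, which was scaled with TMM factors over these 15 libraries. Fold changes, SE and adjusted p values are from the quasi-likelihood test of edgeR with Benjamini-Hochberg adjustment over the 13993 genes whose log2 CPM exceeded 1 in 7 or more of the 25 libraries. A gene was called at an adjusted p under 0.05. The Schwann cell markers S100b and Sox10 were abundant in every library, with 492 to 754 CPM of S100b and 503 to 595 CPM of Sox10 in C3-PMP22 c-JunP0Cre and 516 to 735 CPM and 389 to 450 CPM in WT-C3. Fewer cells of a type and less RNA per cell cannot be told apart in whole nerve.

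The targeted gene differed between all 3 genotypes. Jun (ENSMUSG00000052684, GRCm39 chromosome 4, 94937271 to 94940459, minus strand) had 30.8, 29.9, 26.6, 27.2 and 32.3 CPM in C3-PMP22 c-JunP0Cre from 3 to 12 weeks, 55.4, 51.2, 72.3, 52.6 and 60 CPM in WT-C3 and 93.8, 115, 110, 121 and 107 CPM in C3. The 3 ranges did not overlap. Jun was thus lower than in WT-C3 (log2 fold change -1.0 ± 0.10 SE, adjusted p = 3.4e-05) and lower than in C3 (-1.90 ± 0.09, adjusted p = 7.29e-07), while in C3 it was above WT-C3 (0.90 ± 0.10, adjusted p = 0.000189). The remaining reads cannot be assigned to a cell type in whole nerve. The transgene was read in both transgenic genotypes. ENSG00000109099, a human gene of the transgene locus, had 15845, 12063, 11140.1, 10160.5 and 8001 CPM in C3-PMP22 c-JunP0Cre and 13935, 13609, 13332, 11632 and 10253 CPM in C3. The ranges overlapped, and the difference of -0.14 ± 0.19 on the log2 scale was not called (adjusted p = 0.935). WT-C3 libraries had 0.79 to 6.36 CPM on this human gene. The level of mouse Pmp22 was 6962 to 12185 CPM in C3-PMP22 c-JunP0Cre, 8492 to 11380.5 CPM in C3 and 17325 to 28956 CPM in WT-C3. It differed from WT-C3 by -1.32 ± 0.21 on the log2 scale without c-Jun (adjusted p = 0.00077) and by -1.16 ± 0.16 in C3 (adjusted p = 0.000548). Reads of the human and the mouse gene can be exchanged where the sequences are alike, and the size of that exchange was not tested.

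**Figure D1:**
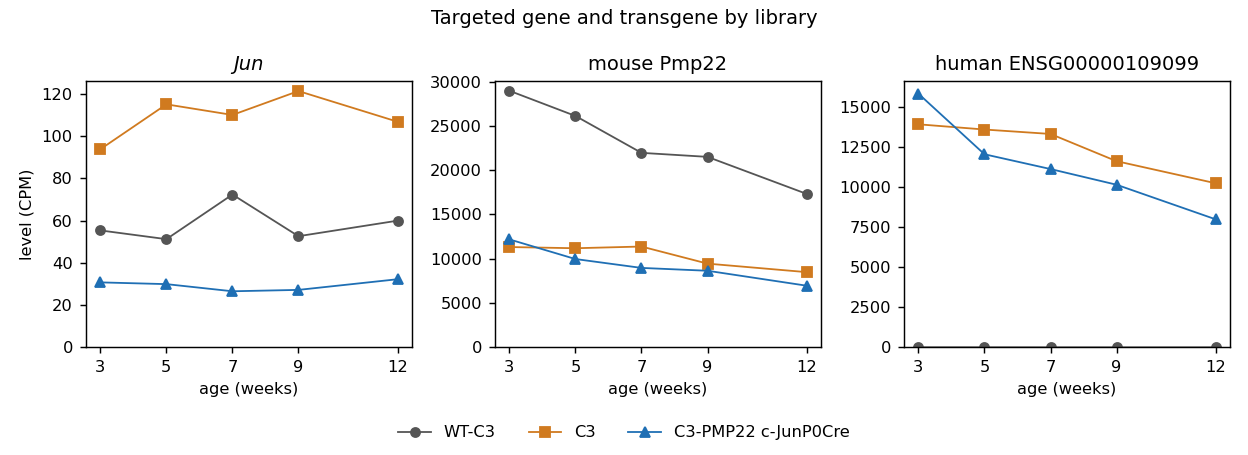
Levels in CPM of Jun, mouse Pmp22 and the human gene ENSG00000109099 (y axes, starting at 0) at each age in weeks (x axis), with 1 point per library and lines joining the libraries of a genotype. Jun is lowest in C3-PMP22 c-JunP0Cre (26.6 to 32.3 CPM) and highest in C3, while both transgenic genotypes lie below WT-C3 for mouse Pmp22 and far above it for the human gene.

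Of the 13993 genes tested, 3015 were called between C3-PMP22 c-JunP0Cre and WT-C3, or 21.5%, with 1437 higher (10.3%) and 1578 lower (11.3%). In C3 against WT-C3 3345 genes were called (23.9%), 1743 higher (12.5%) and 1602 lower (11.4%). These comparisons share the WT-C3 libraries, so their values stand side by side here and are not counted as independent. The test between the transgenic genotypes themselves called 77 genes (0.55%), 31 higher (0.222%) and 46 lower (0.329%) in C3-PMP22 c-JunP0Cre than in C3. Deviations of libraries of the same age correlated to a varying degree in those genotypes (0.12 to 0.61). With age as a block 273 genes were called (1.95%), 164 of them higher and 109 lower. Scaling by library size alone moved the calls against WT-C3 to 2336 higher and 1169 lower without c-Jun and to 2584 higher and 1034 lower in C3, with a shift of the median of all genes to 0.10 and 0.08, and turned the direction of no named gene that was called. Among the genes called against WT-C3, 287 rose and 299 fell by more than a log2 of 1, and 2834 of the 3015 lay on the same side of WT-C3 at all 5 ages. For the difference between the age slopes of C3-PMP22 c-JunP0Cre and WT-C3 edgeR called 0 genes, with 857 at an unadjusted p under 0.05.

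Genes of sterol synthesis were lower than in WT-C3 with or without c-Jun. Of 20 tested genes, 18 fell and 0 rose in C3-PMP22 c-JunP0Cre, against a background of 11.3% lower genes, with a median log2 fold change of -1.32 (0.01 over all genes). In C3 17 of the 20 fell, with a median of -1.05. Sc5d, a desaturase of the sterol ring, had 182, 145, 146, 122 and 116 CPM in C3-PMP22 c-JunP0Cre, 181, 173, 188, 169 and 162 CPM in C3 and 501, 460, 401, 448 and 345 CPM in WT-C3. Every library of both transgenic genotypes lay below every WT-C3 library, and the log2 fold changes against WT-C3 were -1.60 ± 0.14 (adjusted p = 1.28e-05) without c-Jun and -1.30 ± 0.10 (adjusted p = 2.58e-05) with it. Dhcr7 and Mvk did not pass the threshold, at -0.72 and -0.52. All but 2 of the 20 genes had a lower fitted level without c-Jun than in C3, by a median of 0.24 on the log2 scale, yet none of them was called between the transgenic genotypes, with or without age as a block.

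**Figure D2:**
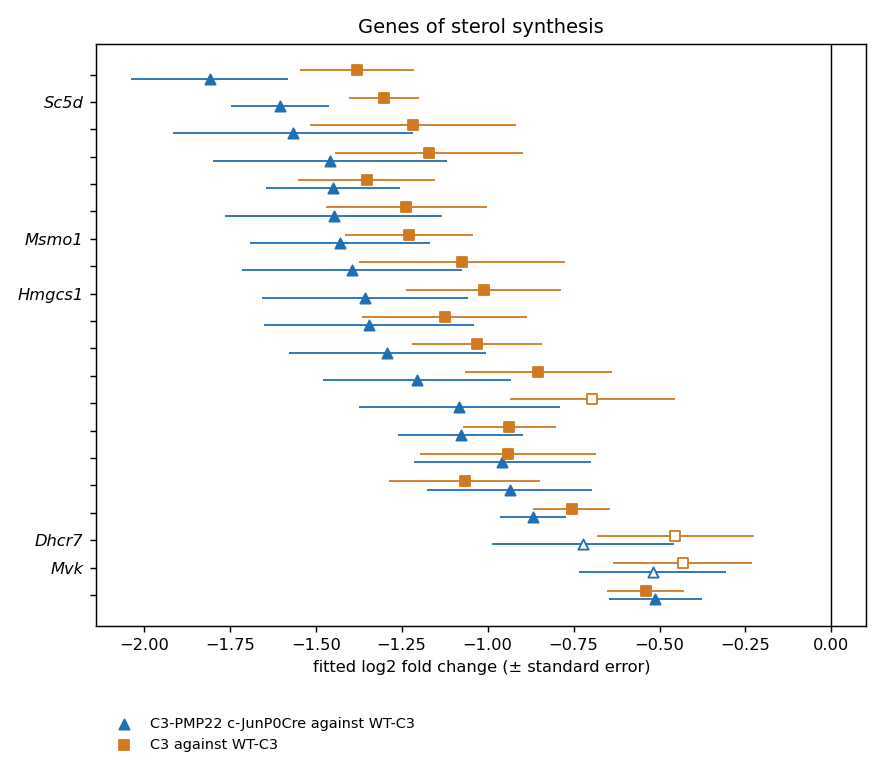
Fitted log2 fold changes against WT-C3 (x axis, bars are the SE) of the 20 genes of sterol synthesis (y axis) in C3-PMP22 c-JunP0Cre (triangles) and C3 (squares), where some of the genes described in the text are named and open symbols mark an adjusted p of 0.05 or more. All 40 values lie below 0, and 18 and 17 of the 20 are filled.

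Promoters of these and of the genes with the steepest changes were searched for the sterol regulatory element TCACNCCAC and the AP-1 element TGANTCA on both strands. The windows, from RefSeq on GRCm38.p6, ran from 250 bases before to 50 bases after the start site. Of 32851 promoters of this length, 1.24% held the first motif and 7.81% the second. Of 48 genes searched 34 had a promoter in the table, 2 of them with the sterol element and 3 with the AP-1 element. The 4 shown are the Hmgcs1, Aldoc, Msmo1 and Piwil4 promoters, because they belong to genes that changed with the transgene whether or not c-Jun was present, with the motif in capitals. Hmgcs1 (chr13:119690101-119690400, plus strand) and Aldoc (chr11:78322823-78323122, plus strand) hold the sterol element, and Msmo1 (chr8:64733529-64733828, minus strand) and Piwil4 (chr9:14718338-14718637, minus strand) the AP-1 element.
Hmgcs1: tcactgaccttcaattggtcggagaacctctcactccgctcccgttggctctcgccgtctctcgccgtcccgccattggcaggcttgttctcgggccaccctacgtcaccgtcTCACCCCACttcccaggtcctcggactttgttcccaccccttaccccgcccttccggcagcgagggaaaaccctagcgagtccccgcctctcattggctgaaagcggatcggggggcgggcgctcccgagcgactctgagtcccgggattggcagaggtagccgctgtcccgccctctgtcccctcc
Aldoc: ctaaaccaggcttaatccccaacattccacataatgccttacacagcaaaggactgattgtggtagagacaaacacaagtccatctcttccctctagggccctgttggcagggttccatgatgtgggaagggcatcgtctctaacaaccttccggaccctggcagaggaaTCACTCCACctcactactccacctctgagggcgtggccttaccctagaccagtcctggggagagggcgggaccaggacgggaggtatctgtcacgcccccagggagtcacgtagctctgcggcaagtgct
Msmo1: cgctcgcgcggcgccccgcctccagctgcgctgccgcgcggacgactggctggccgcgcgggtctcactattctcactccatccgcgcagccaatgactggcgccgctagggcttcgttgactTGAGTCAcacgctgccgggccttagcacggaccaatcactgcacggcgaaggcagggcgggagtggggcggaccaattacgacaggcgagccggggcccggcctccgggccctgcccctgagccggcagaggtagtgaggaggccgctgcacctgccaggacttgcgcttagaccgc
Piwil4: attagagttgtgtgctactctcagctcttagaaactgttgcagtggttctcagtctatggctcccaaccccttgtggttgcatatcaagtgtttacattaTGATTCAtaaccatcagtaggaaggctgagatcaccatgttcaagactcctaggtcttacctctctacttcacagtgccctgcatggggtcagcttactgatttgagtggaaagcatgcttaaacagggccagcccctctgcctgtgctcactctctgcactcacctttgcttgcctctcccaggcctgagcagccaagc
A match describes the letters of the window and is not evidence of binding. Hmgcs1, an early synthase of the pathway, had 404 to 1234 CPM in C3-PMP22 c-JunP0Cre, 749 to 1286 CPM in C3 and 1349.5 to 3175 CPM in WT-C3, a log2 fold change of -1.36 ± 0.30 (adjusted p = 0.0071) without c-Jun and -1.01 ± 0.22 (adjusted p = 0.00778) with it. Msmo1, a sterol demethylase, fell by 1.43 ± 0.26 and 1.23 ± 0.19 on the same scale (adjusted p = 0.00219 and 0.00101). Aldoc, an aldolase of glycolysis, had 1.18 to 3.62 CPM without c-Jun, 0.909 to 3.76 CPM in C3 and 9.53 to 26.3 CPM in WT-C3. Piwil4, a Piwi protein best known from the germ line, moved the other way, with 25.2 to 56.7 CPM without c-Jun, 35.9 to 52.4 CPM in C3 and 0.672 to 1.63 CPM in WT-C3.

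Genes that sense or carry sterols moved both ways. Of 21 tested, 5 rose and 6 fell against WT-C3 without c-Jun, and 4 rose and 5 fell in C3. Among all genes 10.3% rose and 11.3% fell without c-Jun, and 12.5% rose and 11.4% fell in C3. Insig1, which holds SREBP in the endoplasmic reticulum, fell by 1.09 ± 0.14 (C3 -1.11 ± 0.12), and the cholesterol carriers Stard4 and Npc2 fell by 1.23 ± 0.17 and 0.71 ± 0.09 (C3 -0.93 ± 0.15 and -0.80 ± 0.08). Abca1, which exports cholesterol from the cell, rose from 37.7 to 60.7 CPM in WT-C3 to 117 to 198 CPM without c-Jun (1.73 ± 0.15, adjusted p = 1e-05). It had 84.5 to 127 CPM in C3, and the difference between the transgenic genotypes, 0.70 ± 0.14, did not pass the threshold (adjusted p = 0.0646 and, with age as a block, 0.0533). Apoe rose by 0.87 ± 0.16 without c-Jun and by 0.53 ± 0.13 in C3 (adjusted p = 0.00201 and 0.011).

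Of 20 genes of fatty acid synthesis, 6 fell and 0 rose without c-Jun (median -0.23), and 14 fell and 0 rose in C3 (median -0.72), beside a background of 11.3% and 11.4% lower genes. The median difference between the transgenic genotypes was 0.21 on the log2 scale, and 1 of the 20, Me1, was called there. The desaturases Fads1 and Fads2 fell in both, Fads1 from 474 to 571 CPM in WT-C3 to 233 to 306 CPM without c-Jun and 246 to 319 CPM in C3. Me1, which supplies NADPH to lipid synthesis, had 441, 606, 560, 390 and 954 CPM without c-Jun, 217 to 273 CPM in C3 and 238 to 604 CPM in WT-C3. Its level without c-Jun was higher than in C3 at every age (1.28 ± 0.21, adjusted p = 0.0185) and was not called against WT-C3 (0.53 ± 0.26, adjusted p = 0.177). Fasn, the fatty acid synthase, had a similar difference from C3 of 1.30 ± 0.28 that was not called (adjusted p = 0.0892). It was called in 4 of 20 alternative settings, among them age as a block (adjusted p = 0.0201). The desaturase Scd1 (1.07 ± 0.25, adjusted p = 0.123 and, with the block, 0.00188) was called in 3 of the 20 settings, among them the block. Thrsp, a regulator of lipid synthesis (1.24 ± 0.35, adjusted p = 0.221 and, with the block, 0.0395), was called with the block alone. Of 12 adipocyte markers, 11 also had a higher fitted level without c-Jun than in C3. Their sum was 1655 to 8328 CPM without c-Jun, 885 to 5947 CPM in C3 and 2803 to 5789 CPM in WT-C3. Between the transgenic genotypes 9 of the 12 markers were called with age as a block (0 without it). Their part in the values of the fatty acid genes was not tested.

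Part of the enzymes of membrane lipids fell in both transgenic genotypes. Of 26 genes of sphingolipid and galactolipid synthesis, 10 fell and 2 rose without c-Jun, and 12 fell and 4 rose in C3. For the lists of this paragraph the background was 11.3% lower and 10.3% higher genes without c-Jun (11.4% and 12.5% in C3). Ugt8a, which makes the galactocerebroside of myelin, had 776, 645, 599, 518 and 411 CPM without c-Jun, 733, 660, 670, 516 and 453 CPM in C3 and 2214, 1862, 1369.8, 1320.1 and 888 CPM in WT-C3. The transgenic libraries lay below all WT-C3 libraries, with log2 fold changes of -1.38 ± 0.24 (adjusted p = 0.00154) and -1.34 ± 0.22 (adjusted p = 0.00182). Fa2h, the hydroxylase of the same lipids, fell by 0.80 ± 0.13 without c-Jun, the ceramide synthase Cers2 by 0.56 ± 0.12 and the sphingomyelin synthase Sgms1 by 0.62 ± 0.08 (C3 -0.56 ± 0.13, -0.61 ± 0.10 and -0.62 ± 0.08). In glycerophospholipid synthesis 8 of 30 genes fell and 2 rose (8 and 1 in C3), and in plasmalogen synthesis 3 of 9 fell (3 in C3), led by Peds1, the plasmanylethanolamine desaturase, at -0.99 ± 0.13 (C3 -0.89 ± 0.11). None of the genes of these 3 lists was called between the transgenic genotypes by the test described above. With age as a block 3 glycerophospholipid genes were called as higher without c-Jun, namely Chpt1 (0.52 ± 0.20, adjusted p = 0.492 and, with the block, 0.00653), Agpat2 (0.92 ± 0.27, adjusted p = 0.256 and 0.00769) and Gpat3 (0.85 ± 0.41, adjusted p = 0.66 and 0.00913), as were the adipocyte markers above, whose part was not tested. Elovl4, which elongates very long fatty acids, had 3.86 to 6.20 CPM without c-Jun, 2.27 to 6.51 CPM in C3 and 21.5 to 29.2 CPM in WT-C3.

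Among 16 myelin proteins, 4 fell and 2 rose without c-Jun, and 4 fell and 4 rose in C3. The background was 11.3% lower and 10.3% higher genes without c-Jun, and 11.4% and 12.5% in C3. Mal and Drp2 fell by 0.71 ± 0.18 and 0.50 ± 0.13 (C3 -0.63 ± 0.16 and -0.46 ± 0.11), and Gjc3, a connexin, rose by 0.78 ± 0.22 (C3 0.78 ± 0.22), a call that was lost in 4 of 20 alternative settings. Mbp was not called, at -0.45 ± 0.20 without c-Jun and -0.38 ± 0.15 in C3. None of the 16 was called between the transgenic genotypes. Of 18 regulators of myelination 9 rose and 4 fell without c-Jun and 8 rose and 3 fell in C3, beside backgrounds of 10.3% and 12.5% higher genes. Pou3f1, also known as Oct6, which marks Schwann cells before they myelinate, had 191, 142, 138, 165 and 136 CPM without c-Jun, 157, 147, 147, 223 and 134 CPM in C3 and 53.0, 38.9, 35.2, 31.5 and 27.1 CPM in WT-C3 (2.05 ± 0.17, adjusted p = 9.2e-06, and 2.11 ± 0.19, adjusted p = 3.8e-05). Nrg1, a growth factor for Schwann cells, rose from 0.775 to 1.16 CPM in WT-C3 to 5.92 to 13.5 CPM (3.22 ± 0.27), with 3.18 to 10.4 CPM in C3. Its receptor subunit Erbb3 rose by 0.54 ± 0.08 (C3 0.71 ± 0.08).

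Of the AP-1 genes, Jun was the only one called between the transgenic genotypes by the test described above. Of 16 tested AP-1 and related genes, 5 rose and 1, Jun, fell against WT-C3 without c-Jun, and 6 rose in C3, Jun among them. The share of all genes that rose was 10.3% without c-Jun and 12.5% in C3. Fos had 35.9, 32.6, 28.5, 32.1 and 24.2 CPM without c-Jun, 44.9, 25.5, 29.3, 38.6 and 21.6 CPM in C3 and 6.55 to 17.7 CPM in WT-C3 (1.55 ± 0.22, adjusted p = 0.000358, and 1.60 ± 0.27, adjusted p = 0.00169). Junb, Atf3, Mafg and Maff rose by 0.78 ± 0.18, 0.57 ± 0.11, 0.36 ± 0.07 and 0.55 ± 0.18, the last of which lost its call in 12 of 20 alternative settings. In C3 the first 3 rose by 0.81 ± 0.22, 0.60 ± 0.10 and 0.34 ± 0.06, and Maff, at 0.18 ± 0.18, was not called. Jund was at -0.03 ± 0.12 without c-Jun and 0.09 ± 0.18 in C3 and was not called. Fosl2 was higher in C3 than in WT-C3 (0.57 ± 0.09, adjusted p = 0.00124) and not called without c-Jun (0.16 ± 0.07, adjusted p = 0.121). Its difference between the transgenic genotypes, -0.41 ± 0.08, was not called (adjusted p = 0.0547). That difference was called in 4 of 20 alternative settings, among them age as a block (adjusted p = 0.0432). Immediate early genes, which respond to growth factors within minutes, had 5 higher and 1 lower of 15 tested in each transgenic genotype, with Egr3 at 1.59 ± 0.26 without c-Jun and 1.85 ± 0.28 in C3.

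Several markers of repair and of immature Schwann cells were high in C3 and lower without c-Jun. Ngfr, the low affinity neurotrophin receptor, had 100, 97.4, 90.6, 93.3 and 92.8 CPM without c-Jun, 205, 224, 217, 192 and 156 CPM in C3 and 72.3, 61.2, 45.6, 50.9 and 59.8 CPM in WT-C3. The 3 ranges did not overlap: it rose against WT-C3 by 0.70 ± 0.11 without c-Jun (adjusted p = 0.000764) and by 1.78 ± 0.13 in C3 (adjusted p = 2.3e-05), and differed between the transgenic genotypes by -1.08 ± 0.10 (adjusted p = 0.000288). Gfap, an intermediate filament, followed the same order, with 9.46, 10.4, 8.90, 7.58 and 6.14 CPM without c-Jun, 15.6 to 32.1 CPM in C3 and 3.18 to 5.93 CPM in WT-C3 (-1.35 ± 0.20 against C3, adjusted p = 0.00984). Shh, the Sonic hedgehog ligand, had 5.74 to 9.46 CPM without c-Jun, 9.53 to 24.1 CPM in C3 and 0.775 to 6.59 CPM in WT-C3. It was called in C3 (2.48 ± 0.50, adjusted p = 0.0048) and not without c-Jun (1.30 ± 0.44, adjusted p = 0.0515). Between the transgenic genotypes Shh was not called (-1.18 ± 0.28, adjusted p = 0.126). It was called there in 4 of 20 alternative settings, among them age as a block (adjusted p = 0.0422). Tnc, tenascin C, likewise rose in C3 (1.95 ± 0.34) and was at 0.56 ± 0.27 without c-Jun, with a difference of -1.39 ± 0.40 called with the block (adjusted p = 0.25 and, with the block, 0.00134).

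Other markers of these lists were above WT-C3 in both genotypes. Of 14 tested markers of immature and Remak Schwann cells, 8 rose and 1 fell in each genotype. Of 13 repair markers 5 rose and 3 fell without c-Jun while 6 rose and 0 fell in C3. Beside them, 10.3% of all genes rose and 11.3% fell without c-Jun, and 12.5% rose and 11.4% fell in C3. Clcf1, Runx2 and Sox4 rose by 1.62 ± 0.19, 1.77 ± 0.23 and 1.42 ± 0.18 without c-Jun and by 2.02 ± 0.21, 2.34 ± 0.28 and 1.45 ± 0.18 in C3. Sox2, a factor of immature Schwann cells, had 17.8 to 21.4 CPM without c-Jun, 20.9 to 26.2 CPM in C3 and 9.55 to 11.9 CPM in WT-C3. Id2, an inhibitor of differentiation, was at 36.8 to 52.2 CPM without c-Jun, 24.5 to 40.4 CPM in C3 and 11.1 to 18.7 CPM in WT-C3, and was called as higher than in C3 with age as a block (0.40 ± 0.14, adjusted p = 0.426 and, with the block, 0.0205).

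Further genes were high in C3 and low or intermediate without c-Jun. The next 4 were chosen after their values were seen. Sema4f, a semaphorin, had 0.465, 0.772, 0.813, 1.05 and 1.29 CPM without c-Jun and 5.45 to 8.07 CPM in C3, and its level without c-Jun overlapped the 0.543 to 1.83 CPM of WT-C3 (-0.34 ± 0.35 against WT-C3, adjusted p = 0.541, and -2.88 ± 0.23 against C3, adjusted p = 0.000115). Stac2 had 0.993 to 1.26 CPM against 1.82 to 7.12 CPM in C3 and 0.552 to 1.49 CPM in WT-C3. Ntn5, a netrin, and Adam11, a disintegrin without protease activity, were lower without c-Jun than in C3 by 1.19 ± 0.14 and 1.52 ± 0.21. Cxcl10, a chemokine, had 2.48 to 3.94 CPM without c-Jun, 5.00 to 9.19 CPM in C3 and 1.60 to 2.56 CPM in WT-C3 (-1.35 ± 0.18 against C3, adjusted p = 0.00378). Kcnk10, a potassium channel, differed by -1.65 ± 0.28 (adjusted p = 0.021), a call lost in 7 of 20 alternative settings. Of the largest rises of C3, 3 genes were above WT-C3 in both genotypes but lower without c-Jun: Btc, the growth factor betacellulin, Nr1h4, the bile acid receptor, and Slc17a8, a glutamate transporter, differed from C3 by -0.95 ± 0.16, -1.12 ± 0.16 and -1.78 ± 0.31 (adjusted p = 0.0226, 0.00587 and 0.0234), and lost that call in 7, 2 and 5 of 20 alternative settings. Shpk, a sugar kinase, was at 66.8 to 76.1 CPM without c-Jun, below both WT-C3 (76.9 to 103 CPM) and C3 (110 to 126 CPM).

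**Figure D3:**
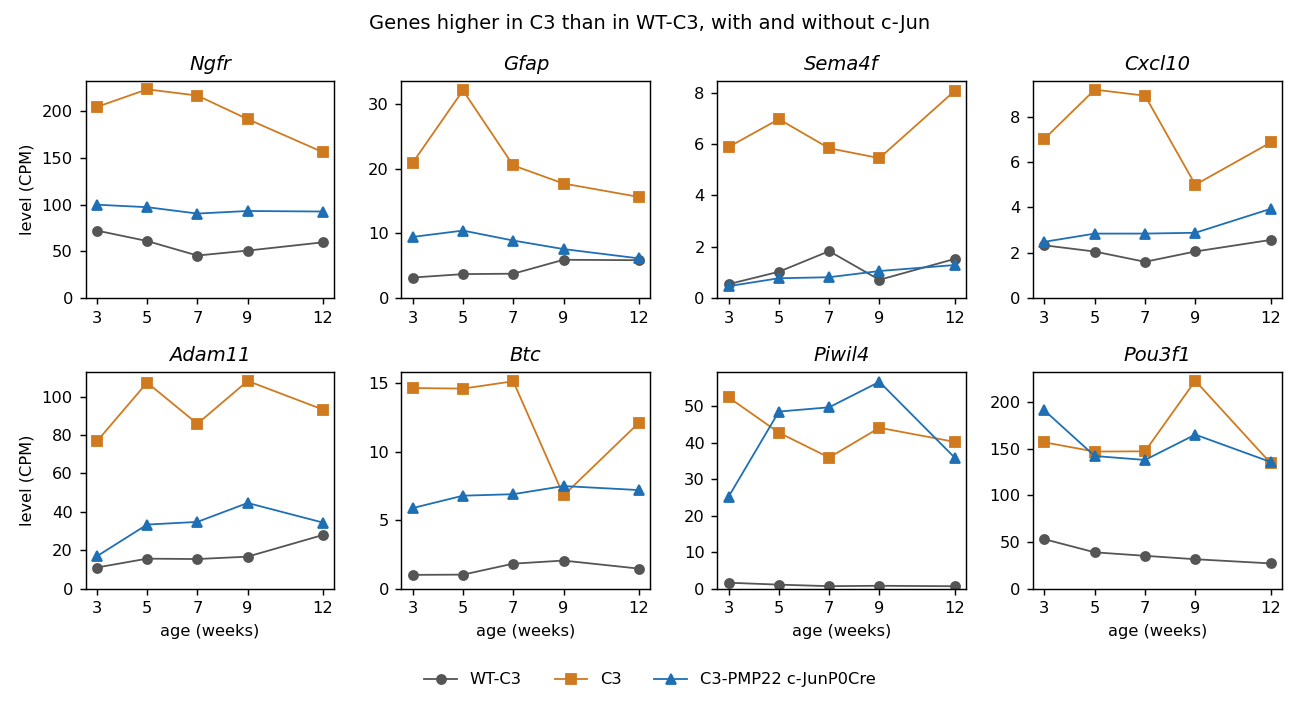
Levels in CPM (y axes, starting at 0) of 8 genes at each age in weeks (x axis), 1 point per library, for WT-C3 (circles), C3 (squares) and C3-PMP22 c-JunP0Cre (triangles). Without c-Jun, Ngfr (90.6 to 100 CPM) lies between WT-C3 and C3 at every age and Sema4f overlaps WT-C3, while Piwil4 and Pou3f1 overlap C3.

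Among the largest rises against WT-C3, some genes overlapped the C3 level and others were higher still without c-Jun. Kcnj10, an inward rectifier potassium channel of glia, had 76.8 to 116 CPM without c-Jun, 64.0 to 149 CPM in C3 and 4.40 to 12.8 CPM in WT-C3 (3.68 ± 0.26 and 3.73 ± 0.32). Cxcl14, a chemokine, had 159 to 205 CPM, 92.0 to 175 CPM and 5.89 to 21.6 CPM in the same order, and Gadl1 rose by 3.82 ± 0.42 and 3.99 ± 0.51. Fbp1, which encodes the gluconeogenic fructose bisphosphatase, reached 35.3, 38.7, 47.1, 65.5 and 69.7 CPM without c-Jun, against 1.67 to 2.73 CPM in C3 and at most 0.233 CPM in WT-C3. Its difference from C3 was 4.72 ± 0.25 (adjusted p = 1.76e-06). Tyrp1, a melanosome enzyme, reached 62.6 to 83.5 CPM, against 5.00 to 10.9 CPM in C3 and at most 0.789 CPM in WT-C3 (3.34 ± 0.19 against C3, adjusted p = 2.85e-06). Otop1, a proton channel, and Slain1, a microtubule protein, were above C3 by 1.00 ± 0.18 and 1.26 ± 0.23 (adjusted p = 0.026 and 0.0346), calls lost in 8 and 9 of 20 alternative settings. Ppp2r2c and Tex15 rose against WT-C3 by 3.73 ± 0.17 and 3.44 ± 0.25 (C3 2.94 ± 0.27 and 2.42 ± 0.36). Against C3 they were not called (adjusted p = 0.237 and 0.0896). They were called there in 2 and 5 of 20 alternative settings, among them age as a block (adjusted p = 0.0106 and 0.0148). Eno1b, a near-identical copy of the enolase gene Eno1 whose reads can be split between the copies, had 35.9 to 64.8 CPM without c-Jun, 0.742 to 11.4 CPM in C3 and 1.11 to 4.58 CPM in WT-C3. Wdfy1, Gfra3, Hapln2, Rab15 and Cxcr4, chosen after their values were seen, were also higher than in both other genotypes, Wdfy1 for example at 59.4 to 68.0 CPM against 14.5 to 30.5 CPM in C3 and 20.5 to 31.4 CPM in WT-C3.

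A few genes were far lower without c-Jun than in both other genotypes. Mmrn1, which encodes multimerin, had 0 counts in 4 of the 5 C3-PMP22 c-JunP0Cre libraries and 1 count in the library of 5 weeks. Its level was 10.5 to 29.1 CPM in WT-C3 and 3.18 to 23.1 CPM in C3, and that without c-Jun came to 0.05% of WT-C3 (exact 95% interval 0.00126% to 0.279%, counting error only). On chromosome 14, 3 of the 15 genes tested within 1 Mb of Plac9, itself counted, were called between the transgenic genotypes. They were Plac9 (19.8 to 36.8 CPM without c-Jun, 62.9 to 128 CPM in C3 and 114 to 196 CPM in WT-C3), Tmem254 and Duxbl1. Over all genes the share was 0.55%, but the window was placed around Plac9 because of its fall. Its own call was thus known in advance, and the count is no result. Against WT-C3 5 of the 15 were called without c-Jun and 3 in C3. Of 124 genes tested within 20 Mb of Jun, 5 were called against C3, or 4.03% beside 0.55% of all genes: Tyrp1, Cyp2j13, Adamtsl1, Slc24a2 and Efcab7. Cyp2j13, at 4.71 to 8.84 CPM without c-Jun and 8.37 to 13.8 CPM in WT-C3, had at most 1.17 CPM in C3 (3.09 ± 0.36 between the transgenic genotypes). Chromosome 4 held 12 of the 77 calls, or 15.6%, and 6.07% of the genes tested. The part of sequence carried along with the altered Jun allele was not tested.

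Short transcripts were among the largest falls. The median log2 fold change against WT-C3 was -0.65 without c-Jun for the 92 genes with a summed exon length of up to 500 bases, -0.42 for those of 500 to 1000 bases and 0.04 for those above 5000 bases, with -0.41, -0.17 and 0.03 in C3. Of 592 genes under 1500 bases 168 fell and 19 rose, or 28.4% lower beside the background of 11.3%. Bc1, a brain cytoplasmic RNA of 176 bases, had 0.155 to 0.588 CPM without c-Jun and 11.8 to 34.8 CPM in WT-C3, and the ribosomal protein genes Rps29 and Rpl38 had 3.09 to 6.8 CPM against 38.4 to 77.1 CPM and 5.28 to 9.79 CPM against 34.4 to 54.2 CPM. In C3 the library of 9 weeks stood apart, with 21.4 CPM of Bc1 against 0.18 to 0.689 CPM in the other C3 libraries and 44.5 CPM of Rps29 against 3.01 to 11.0 CPM. Rps28 and mt-Atp6 had the same pattern. With genes under 1500 bases left out, an alternative chosen after seeing these values, 2809 of 13377 genes were called, 1409 higher and 1400 lower. The summed length takes all annotated exons of a gene, so genes with short transcripts can remain. Of 89 cytosolic ribosomal protein genes, 46 fell without c-Jun, and only 15 of the 89 were under 1500 bases. Without the C3 library of 9 weeks 3625 genes were called in C3. The part of transcript length in the falls was not tested.

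**Figure D4:**
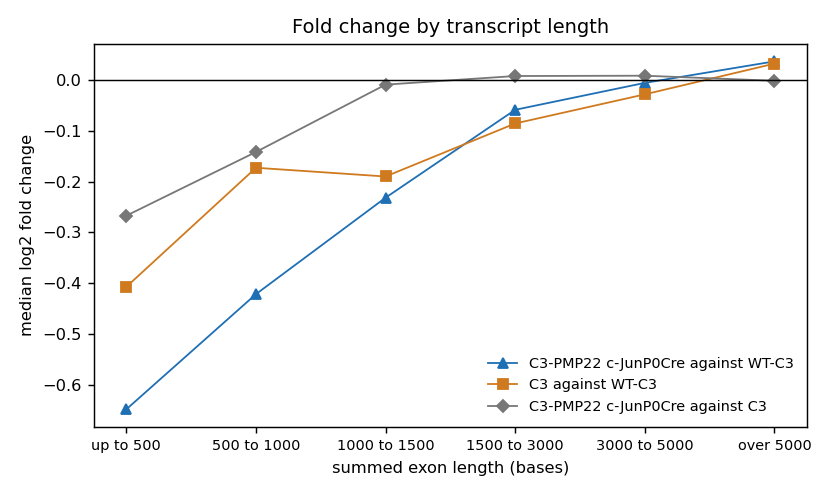
Median log2 fold change (y axis) of tested genes in 6 classes of summed exon length in bases (x axis) for the 3 comparisons. Against WT-C3 the medians of both transgenic genotypes are lowest in the shortest class (-0.65 and -0.41) and close to 0 above 3000 bases.

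Among the falls that were not of short transcripts, Cntn1, the axonal and nodal adhesion protein contactin, had 4.34, 1.73, 1.63, 0.892 and 0.736 CPM without c-Jun, 5.90 to 12.1 CPM in C3 and 9.6 to 14.3 CPM in WT-C3. It fell against WT-C3 by 2.71 ± 0.39 (adjusted p = 0.000432), was not called in C3 (-0.55 ± 0.20, adjusted p = 0.0624), and differed from C3 by -2.14 ± 0.43 (adjusted p = 0.0547 and, with age as a block, 0.0017). Wt1, a transcription factor, had log2 fold changes of -2.40 ± 0.32 without c-Jun and -2.86 ± 0.29 in C3. Zcchc18 was at -2.43 ± 0.28 and -1.88 ± 0.35.

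Genes of cell division rose in both transgenic genotypes. Of 20, 13 rose and 0 fell in each transgenic genotype, with a median of 1.38 without c-Jun and 1.5 in C3. Over all genes 10.3% rose without c-Jun and 12.5% in C3. Mki67 had 8.16 to 25.9 CPM without c-Jun, 7.72 to 34.5 CPM in C3 and 1.90 to 10.2 CPM in WT-C3. Rrm2, Ccnb1 and Cdk1 rose by 1.79 ± 0.29, 2.33 ± 0.41 and 2.01 ± 0.40 without c-Jun and by 1.53 ± 0.28, 2.06 ± 0.39 and 1.84 ± 0.36 in C3. Of 32 matrix genes 5 rose and 0 fell without c-Jun and 6 rose and 0 fell in C3, beside 10.3% and 12.5% of all genes. Among them were Mmp14 (0.84 ± 0.12, C3 0.62 ± 0.12), Col18a1 (0.89 ± 0.14, C3 1.03 ± 0.16) and Col27a1 (1.01 ± 0.17, C3 1.69 ± 0.18). With age as a block 5 were lower without c-Jun than in C3, Col27a1 (-0.68 ± 0.19, adjusted p = 0.219 and, with the block, 0.01) and, chosen after their values were seen, Col5a1, Col12a1, Lama5 and Postn (differences of -0.57 to -0.36 on the log2 scale, adjusted p = 0.0104 to 0.0283, with the block, and 0.206 to 0.739 without it).

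Of 19 macrophage genes 3 rose and 2 fell without c-Jun and 3 rose and 1 fell in C3. Trem2, a lipid receptor of phagocytes, had 7.34 to 13.6 CPM without c-Jun, 6.69 to 9.65 CPM in C3 and 3.05 to 4.23 CPM in WT-C3 (1.49 ± 0.19 and 1.29 ± 0.16). Mpeg1 and Cx3cr1 rose by 0.95 ± 0.21 and 0.85 ± 0.21 (C3 0.76 ± 0.18 and 1.05 ± 0.19), and Cd163, of resident macrophages, fell by 0.92 ± 0.23 (C3 -0.70 ± 0.23). The summed level of the 19 genes was 461 to 843 CPM without c-Jun and 497 to 892 CPM in WT-C3. Of 14 fibroblast genes 1 rose and 1 fell (Mfap5, by 1.21 ± 0.11, C3 -1.02 ± 0.15), of 10 perineurial genes 2 fell, and of 14 endothelial and pericyte genes 1 rose. In C3 1 rose and 2 fell of the fibroblast genes, 4 fell of the perineurial and 1 rose and 4 fell of the endothelial and pericyte genes. The background in C3 was 12.5% higher and 11.4% lower genes. All 14 endothelial and pericyte genes had a higher fitted level without c-Jun than in C3, and 0 were called between those genotypes. The perineurial list held Cldn1, a tight junction protein, which was higher without c-Jun than in C3 with age as a block (0.61 ± 0.13, adjusted p = 0.0896 and, with the block, 0.0432). None of the 13 lymphocyte genes passed the filter, and their summed level was 3.73 to 7.28 CPM without c-Jun and 3.47 to 5.71 CPM in WT-C3. Of 4 red cell genes 3 fell without c-Jun, but the sum over this list ranged from 117 to 1566 CPM in WT-C3 and from 48.0 to 172 CPM without c-Jun, and the calls of Hbb-bs, Hbb-bt and Alas2 were lost in 7, 5 and 8 of 20 alternative settings. Skeletal muscle genes, summing to 8.15 to 974 CPM without c-Jun and 23.7 to 3688 CPM in WT-C3, had 0 calls among 10 in edgeR, and with age as a block Actn3, a sarcomere protein, was lower than in C3 (-2.59 ± 1.22, adjusted p = 0.652 and, with the block, 0.0408). Of 6 genes of neurons 3 fell and 1 rose, with Nefm, a neurofilament, at -1.19 ± 0.17 (C3 -0.72 ± 0.27, not called), and Tubb3, a tubulin, at 2.41 ± 0.13 (C3 2.83 ± 0.19). Of the remaining lists, Hedgehog signalling had 1 higher and 2 lower of 13, ERK feedback 2 higher of 14, the ER stress response 1 higher and 1 lower of 19, macrophage recruitment 2 higher and 1 lower of 11, antigen presentation 2 lower of 14, and channels and node 3 higher and 4 lower of 15, while 0 of 6 mast cell genes were called. Among all genes 10.3% were higher and 11.3% lower, and nothing particular to these lists is read from such small counts.

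**Figure D5:**
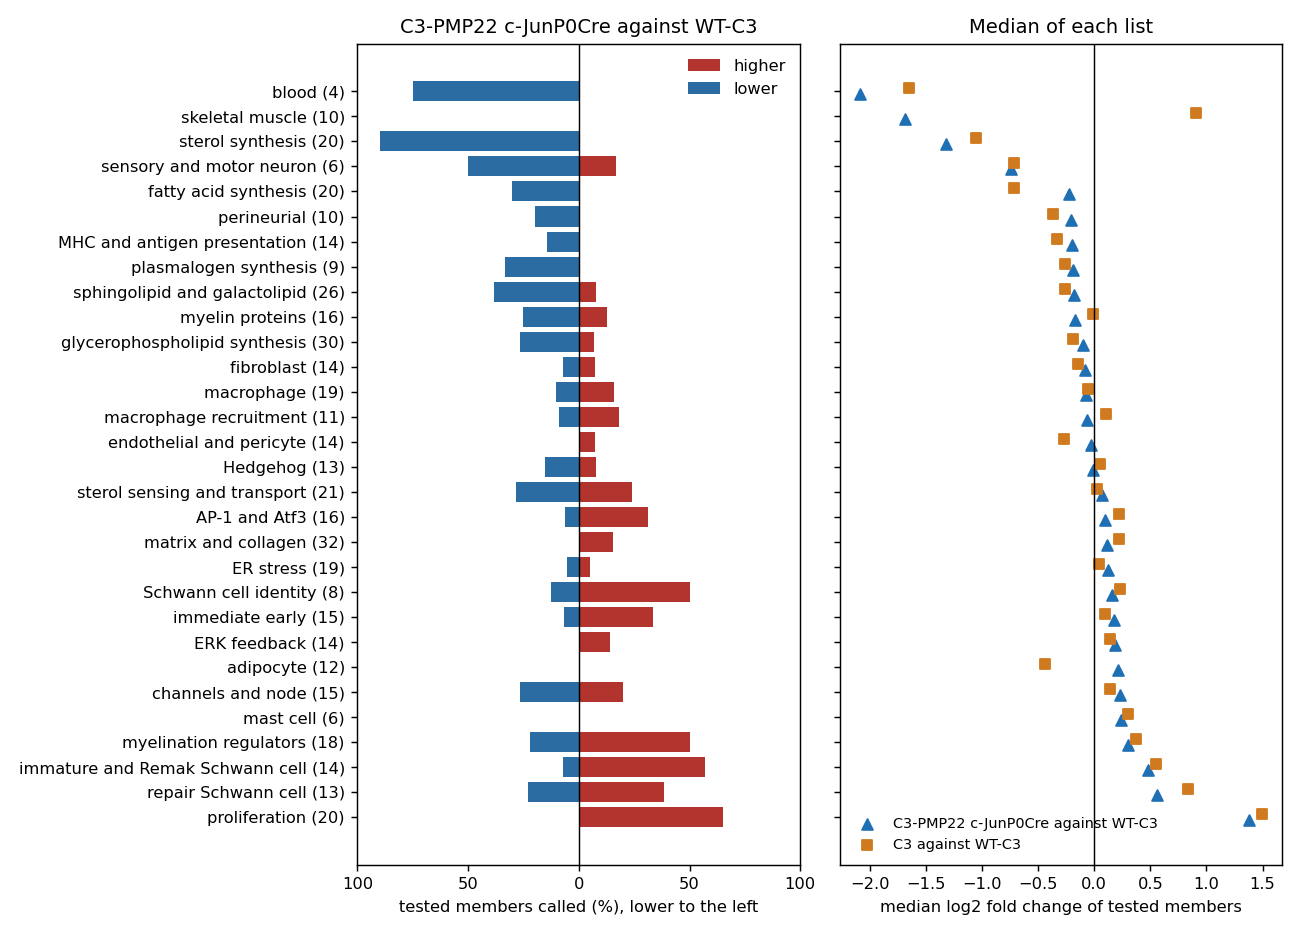
Left, share of tested members of each gene list (number tested in brackets) that were called higher (to the right) or lower (to the left) in C3-PMP22 c-JunP0Cre than in WT-C3, in percent. Right, median log2 fold change of the list in C3-PMP22 c-JunP0Cre (triangles) and C3 (squares) against WT-C3: sterol synthesis lies at -1.32 and -1.05 and proliferation at 1.38 and 1.5.

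A transgene comparison that shared no library with C3-PMP22 c-JunP0Cre and WT-C3 was that of C22, another PMP22 line labelled Tg(PMP22)C22Clh, with its WT-C22 controls, 5 libraries each at the same ages. Both are on the FVB/NRJ strain and not on C57BL/6J, so the strain differs from that of the C3 mice and their controls. The comparison called 42.4% of the genes (21.9% higher and 20.5% lower). Of the 1437 genes higher without c-Jun than in WT-C3, 1042 were also higher in C22, which is 72.5% of that list and 33.9% of the 3070 genes higher in C22. Of the 1578 lower genes 910 were also lower in C22, or 57.7% and 31.7% of the lists. All 20 genes of sterol synthesis fell in C22, with a median of -2.15.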

How the data were processed

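Poly(A) RNA of pooled sciatic nerves was sequenced from directional libraries. The authors deposited raw counts per gene, made by trimming with Cutadapt 2.10, alignment with STAR 2.7.5a to GRCm39 with the human transgene locus, removal of duplicates by molecular identifier with UMI-tools 1.1.1 and counting with HTSeq 0.12.4, with FastQC 0.11.9 for quality. The count table held 56956 genes, 15 of them human, and 56323 of the 56941 mouse genes were matched to a symbol. Between 8.72% and 11.3% of the fragments of a library fell on no gene and were left out of library sizes.

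Genes whose log2 CPM exceeded 1 in 7 or more of the 25 libraries were tested in edgeR 4.0.16 (R 4.3.3) with the quasi-likelihood test, TMM factors and genotype as the single term, on the 10 libraries compared. DESeq2 1.42.0, other scalings, filters and library sets, thinned counts and the omission of each library were alternatives. On counts simulated for C3-PMP22 c-JunP0Cre against WT-C3 with 13993 genes, the test called 22 of 66 genes changed by a log2 of 0.5, 66 of 67 changed by 1 and 67 of 67 changed by 2. Every simulated gene had the same dispersion (0.02994) and no trend with age. Recovery of genes that vary more or change with age is therefore not shown by it. There was 1 library per genotype and age, so p values measure the spread across ages and pools. Intervals on counts cover counting error only.

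Deviations from the genotype means correlated positively between C3-PMP22 c-JunP0Cre and C3 libraries of the same age (0.12 to 0.61). The C3 library of the same age was the closest at 3, 9 and 12 weeks, but not at 5 and 7 weeks, where the basis for a block was weak. Values with age as a block are given for the described genes whose call they change between the transgenic genotypes. Against WT-C3 the correlations were 0.02 to 0.35 without c-Jun, and at no age was the library of the same age the closest. For C3 against WT-C3 they were -0.23 to 0.36. Libraries were not paired in these comparisons.

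The members and the gene lists were chosen with earlier results of these data known. Named genes were the targeted genes, the 12 largest rises and 12 largest falls against WT-C3 with a mean of at least 5 CPM and 1 direction at 5 ages, the 8 genes with the smallest adjusted p between the transgenic genotypes, the 8 largest rises and falls of C3, up to 4 members of each list by adjusted p without c-Jun and up to 2 by that of C3, of which the text describes a part and some are not reported here. Hmgcs1, Dhcr7, Mvk, Me1, Fasn, Scd1, Thrsp, Chpt1, Agpat2, Gpat3, Col5a1, Col12a1, Lama5, Postn, Cldn1, Actn3, Mbp, Sema4f, Stac2, Ntn5, Adam11, Wdfy1, Gfra3, Hapln2, Rab15, Cxcr4, Tmem254, Duxbl1, Slc24a2 and Efcab7 were added after their values were seen.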

Additional observations from a re-analysis of the deposited data

Results flagged for a closer look

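In 32 of the 120 genes that the text describes the level differed between C3-PMP22 c-JunP0Cre and C3, by the edgeR test at an adjusted p under 0.05. The loss of c-Jun, the Cre and any difference in background cannot be told apart in it. Many of them were chosen by this comparison or after their values were seen, so the count is no result, and over all genes the share was 0.55%. The log2 difference (without c-Jun minus C3) was -1.90 for Jun, -10.02 for Mmrn1, -1.96 for Plac9, -1.66 for Tmem254, -1.77 for Duxbl1, -1.57 for Efcab7 and -1.85 for Slc24a2. Mmrn1 had 1 count in the 5 libraries, so its fitted value depends on the prior count and is no bound. The difference was -1.08 for Ngfr, -1.35 for Gfap, -2.88 for Sema4f, -1.35 for Cxcl10, -2.18 for Stac2, -1.19 for Ntn5, -1.52 for Adam11, -1.65 for Kcnk10, -1.78 for Slc17a8, -1.12 for Nr1h4, -0.95 for Btc and -0.76 for Shpk. Genes higher without c-Jun were Fbp1 (4.72), Tyrp1 (3.34), Eno1b (5.15), Cyp2j13 (3.09), Adamtsl1 (0.92), Otop1 (1.00), Slain1 (1.26), Me1 (1.28), Wdfy1 (1.35), Gfra3 (1.60), Hapln2 (1.62), Rab15 (2.18) and Cxcr4 (0.56).

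A single library lay far from the other 4 of its genotype (on the log2 CPM scale with a prior count of 2, the gap to its neighbour as a share of the range above 0.71) in 22 of 360 groups of 5 over these 120 genes, or 6.11%, where chance gives about 1 in 20. In C3-PMP22 c-JunP0Cre these shares were 1.0 for Mmrn1 at 5 weeks, 0.711 for Plac9 and 0.739 for Duxbl1 at 12 weeks, 0.760 for Hbb-bt and 0.886 for Sox10 at 9 weeks, and 0.757 for Cxcl14, 0.911 for Fads2, 0.752 for Slc24a2, 0.744 for Mbp and 0.890 for Mvk at 3 weeks. In C3 they were 0.758 for Bc1, 0.843 for Eno1b, 0.721 for Btc and 0.860 for Runx2 at 9 weeks, 0.73 for Scd1, 0.725 for Peds1, 0.879 for Trem2 and 0.739 for Dhcr7 at 12 weeks, and 0.775 for Cx3cr1, 0.716 for Nefm and 0.738 for Cxcr4 at 3 weeks. In WT-C3 it was 0.782 for Slc24a2 at 5 weeks.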

How the results depend on the processing

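The 3015 calls of C3-PMP22 c-JunP0Cre against WT-C3 stayed within 1.5 times under every alternative run, and were 2301 to 3384 with single libraries left out. For C3 against WT-C3 the 3345 calls became 1780 when counts were thinned to equal depth, and 2245 to 3683 with single libraries left out. The 77 calls between the transgenic genotypes depended most on the settings. They were 250 with DESeq2, 139 with all 25 libraries in 1 fit, 134 with no filter on low counts and 35 with thinned counts, and 43 to 98 with single libraries left out, the lowest without the C3 libraries of 5 weeks (43) and 7 weeks (45) and the C3-PMP22 c-JunP0Cre libraries of 5 weeks (47), 7 weeks (45) and 9 weeks (50). With age as a replicate block they were 273, while the block gave 3359 against WT-C3 and 3691 for C3. The 0 calls for the difference in age slope became 48 with no filter and 0 to 2 with single libraries left out, namely 1 without the 12 week library of C3-PMP22 c-JunP0Cre and 2 without that of WT-C3. No named gene that was called turned its direction. Of 254 genes that the naming rule and the later additions selected, a wider set than the text describes, 155 were called against WT-C3, and 138 of these kept their call in all 20 settings, and 17 lost it in at least 1. Between the transgenic genotypes 21 of 36 called genes of that set kept it; Otop1 (0.86 to 1.11), Slain1 (1.11 to 1.46), Slc17a8 (-2.0 to -1.63), Btc (-1.05 to -0.72), Kcnk10 (-1.79 to -1.53), Me1 (1.04 to 1.40), Gfra3 (1.36 to 1.75) and Cxcr4 (0.50 to 0.60) kept their direction but lost the call when single libraries were left out. The causes were not tested, beyond the smaller number of libraries or fragments. The C3 library of 9 weeks, with 2140142 counts, limits what the comparison with C3 can show for low genes.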
